A study of Caenorhabditis elegans with 4 samples.

Results

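The genes *daf-1*, *daf-19* and *kin-29* act in the sensory neurons and signalling pathway that set the choice between reproductive growth and dauer arrest in *Caenorhabditis elegans*. They were taken from a deposited list of peaks from antibody pull-down for N6-methyladenine (6mA) in genomic DNA. Binding by the antibody does not by itself establish 6mA at a region. Every listed peak was included whose nearest gene was 1 of these 3 genes, or whose annotation named the same transcript. This gave 4 of the 365 listed peaks. Of these, 3 were nearest to the named genes, and the fourth was annotated to the *kin-29* transcript but lay nearest to the start of Y71H10B.1. The genes were chosen by their place in the list, that is by the deposited gene names and distances. Their presence, class, width, distance and spacing are therefore given as descriptions without a test.

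The study used whole wild-type animals of the strain Bristol at the L4 larval stage, raised at 22 °C. Its groups were antimycin-treated animals with a 6mA antibody, antimycin-treated animals with no antibody given, untreated animals with the antibody and untreated animals with no antibody given, with 1 library in each. Antimycin A, which blocks complex III of the mitochondrial respiratory chain, was applied to the agar. The treatment label gives 1.92 µM for both treated libraries, and the title of the treated antibody library gives 1.93 µM. The labels describe the antibody as raised against N6-methyladenosine. All peak names carry 1 prefix that matches no library's labels. It holds the letters AA, which could stand for antimycin A, but the sources used here do not explain them. The peaks could thus not be tied to treated or untreated animals. No comparison of antimycin-treated with untreated animals was therefore made at these genes. The list holds no peak height, read count or p-value, so the depth and the strength of each peak are unknown. DNA came from whole animals, so the cells in which a region was bound by the antibody are not resolved.

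In favourable conditions, the sensory neuron pair ASI secretes the TGF-beta ligand DAF-7, which signals through the type I receptor DAF-1 and the type II receptor DAF-4. The Smad proteins DAF-8 and DAF-14 then oppose DAF-3 and DAF-5, which otherwise promote dauer entry. The neurons sense pheromone and food through cilia, and DAF-19, an RFX transcription factor, switches on the genes that build those cilia by binding X-box elements in their promoters. KIN-29, a salt-inducible kinase, acts in sensory neurons on chemoreceptor gene expression, body size and dauer entry, in part through the histone deacetylase HDA-4 and the transcription factor MEF-2.

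Each of the 3 genes carried a listed peak just upstream of a transcription start. The peaks were centred 59 bp upstream of the start of *daf-1*, 202 bp upstream of that of *kin-29* and 226 bp upstream of that of *daf-19*. All 3 had the promoter class, which 138 of the 364 nuclear peaks had (37.9%). For each, the transcript named by the class was also the one with the nearest start, as for 106 of the 138 promoter peaks (76.8%). Over the whole list, 30 nuclear peaks (8.24%) were centred within 250 bp upstream of the nearest start. That limit was set with the 3 distances in view, and nothing is read from the comparison.

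The receptor gene *daf-1* had its peak on chromosome IV, from 132227 to 132558 on the build ce10, a width of 332 bp. Taking the deposited distance as that of the peak centre, which the file does not state, the peak ran from 224.5 bp upstream to 106.5 bp downstream of the start. It was thus the single one of these peaks that contained the annotated start. Where transcription begins in these animals was not measured. Starts lay within the peak in 47 of the 138 promoter peaks (34.1%). Only 14 of the 138 promoter peaks were centred closer to a start than that of *daf-1*. In the RefSeq gene table, which lists 2 transcripts of *daf-1*, the protein-coding genes on either side are *cox-6C*, a cytochrome c oxidase subunit gene, and the collagen gene *col-99*. The peak was included because the list names *daf-1* as its nearest gene, so neither neighbour could have been named there. Nothing is read from their absence.

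The peak of *daf-19*, the RFX factor gene, lay on chromosome II from 10169410 to 10169685 and was 276 bp wide. By the same reckoning it ran from 363.5 to 88.5 bp upstream of the start and did not reach it. RefSeq lists 5 transcripts of *daf-19*. The gene is known to give isoforms of different lengths, of which a short one serves cilia formation. The deposited distance refers to 1 transcript (NM_001026969), and the sources used here do not say which isoform it encodes. The protein-coding neighbours of *daf-19* in the gene table are the neuropeptide-like gene *nlp-63* and the glyceraldehyde-3-phosphate dehydrogenase gene *gpd-4*.

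At *kin-29* the promoter peak lay on chromosome X from 2852453 to 2852726 and was 274 bp wide. It ran from 338.5 to 65.5 bp upstream of the start, also short of it. Its width differed from that of the *daf-19* peak by 2 bp, and measured from their own starts both peaks covered the same 250 bp. Such overlaps were not counted over the other promoter peaks, so nothing is read from this likeness. The *daf-1* peak was wider and was shifted toward its start.

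**Figure D1:**
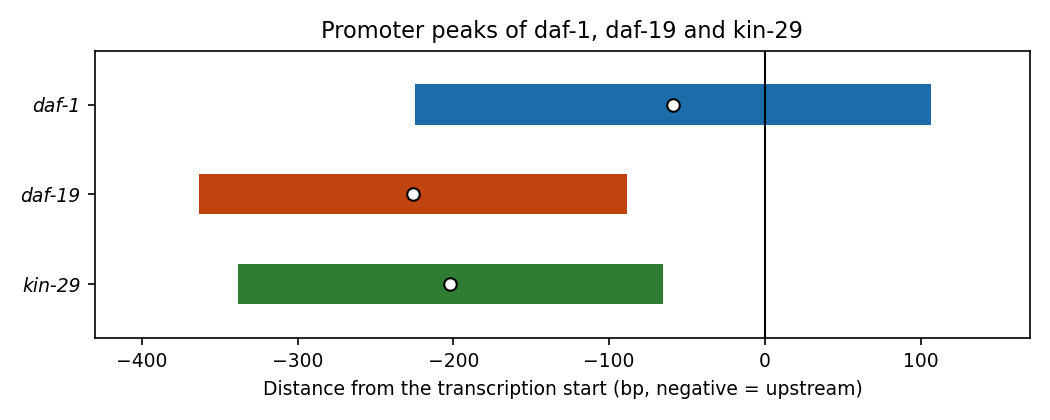
Span of the promoter peaks of *daf-1*, *daf-19* and *kin-29* along the distance from the transcription start in bp (x axis, negative values upstream); bars run from edge to edge and white circles mark the deposited distance. The *daf-1* bar crosses the start at 0, whereas those of *daf-19* and *kin-29* end 88.5 and 65.5 bp upstream of it.

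A further peak was annotated to the other end of *kin-29*. It lay on chromosome X from 2844072 to 2844696 and was assigned to the transcription termination site of the same transcript (NM_076092) that the promoter peak named. Its 625 bp made it 2.28 times as wide as the promoter peak. The list names Y71H10B.1 as its nearest gene because that gene's start, 4102 bp away, was the nearest one, and describes the product as a hypothetical protein. RefSeq gives the transcript at that start to *ntfc-1*, the current symbol of the same locus, and places *ntfc-1* next to *kin-29*. The protein-coding gene on the other side of *kin-29* is *tra-4*, a sex-determination gene.

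The order of both peaks, with the promoter peak at the higher position, means that *kin-29* runs toward lower positions on the chromosome. From its start, the centre of the termination-site peak then lay 8003.5 bp downstream, with edges at 7691.5 and 8315.5 bp. The centres of both peaks were 8205.5 bp apart, and 7756 bp separated their facing edges. Peak numbers in the list run in order of position on every chromosome and reach 1645. The *kin-29* peaks are numbers 1379 and 1380, so no numbered peak lies between them.

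**Figure D2:**
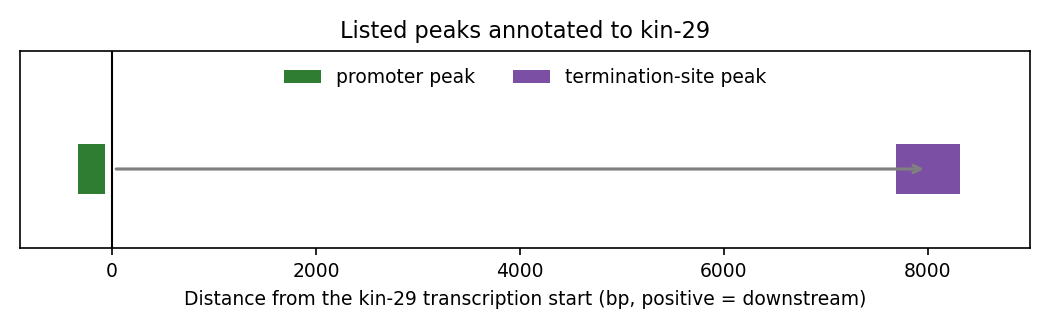
Listed peaks annotated to *kin-29*, along the distance from its transcription start in bp (x axis, positive values downstream); bars run from edge to edge of each peak and the arrow shows the direction of the gene from its start to the centre of the termination-site peak. The promoter peak ends before the start, and the wider termination-site peak is centred 8003.5 bp downstream.

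Few transcripts were named by more than 1 peak. Of 280 transcripts that the nuclear peaks named, 4 were named by 2 or more, belonging to *kin-29*, *unc-43*, Y53F4A.5 and Y67D8A.8. Of these 4, *kin-29* was the single one with both a promoter and a termination-site peak. Its second peak was included because it named the same transcript, so nothing is read from this count. The count was by exact transcript and leaves out peaks that name different transcripts of the same gene. The peaks of *unc-43* and Y53F4A.5 were all intronic, with centres 2538 and 831 bp apart. The 3 peaks of Y67D8A.8, a promoter and 2 intronic ones, had centres spread over 429866 bp, so this entry is not comparable with the close pair at *kin-29*. Being nearest to the start of another gene was common among termination-site peaks, as at Y71H10B.1. It held for 22 of the 52 whose transcripts could both be matched to genes (42.3%).

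The 3 promoter peaks were on the narrow side of the list. The *kin-29* promoter peak was wider than 51, the *daf-19* peak wider than 53 and the *daf-1* peak wider than 121 of the 364 nuclear peaks, whose median width was 404 bp. The 138 promoter peaks were 376.5 bp wide at the median, with quartiles of 291.5 and 492.5 bp, and the *kin-29* and *daf-19* peaks fell below the lower quartile. The *daf-1* peak lay between that quartile and the median. The *kin-29* termination-site peak was wider than 302 of the 364 nuclear peaks and above the upper quartile of the 57 termination-site peaks (median 360 bp, upper quartile 504 bp). Without peak heights, width says nothing here of how strongly a region was enriched.

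**Figure D3:**
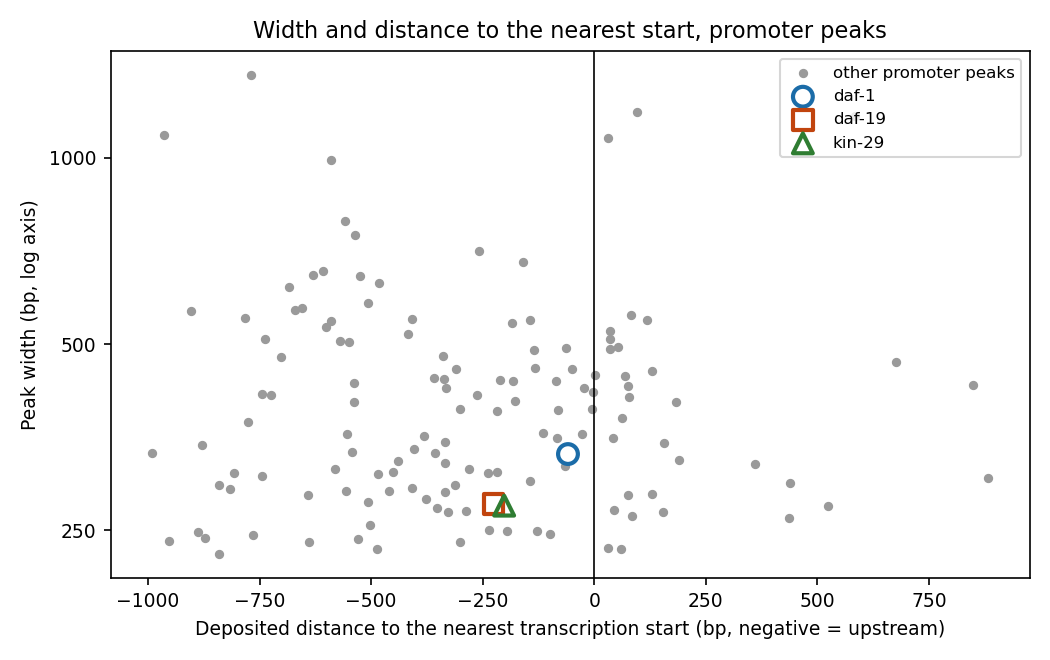
Width in bp (y axis, log scale) against the deposited distance to the nearest transcription start in bp (x axis, negative values upstream) for the 138 promoter peaks; each grey point is 1 peak and open symbols mark *daf-1*, *daf-19* and *kin-29*. The 3 marked peaks lie upstream of and near the start and have widths of 332, 276 and 274 bp.

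The genes differed in how far the nearest other listed peak lay. Both *kin-29* peaks had each other within 10 kb, as 55 of the 364 nuclear peaks had a listed neighbour within that distance (15.1%). The termination-site peak was included as a neighbouring peak annotated to the same transcript, so nothing is read from this comparison. Beyond the pair, the nearest listed peaks were at F52H2.13, 308.0 kb below the termination-site peak, and at the alpha-spectrin gene *spc-1*, 275.3 kb above the promoter peak. The F52H2.13 peak was itself of the promoter class, 99 bp upstream, and the *spc-1* peak was a promoter peak 808 bp upstream.

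The nearest listed peak to that of *daf-1* was an intergenic one 64.7 kb below, nearest to ZC190.9. The next one above was 1.31 Mb away, in an intron, and nearest to the calpain gene *clp-7*. The *daf-1* peak was number 3 of the 63 listed peaks, counted from the low end of chromosome IV. One numbered peak that is not listed fell between it and the ZC190.9 peak, and 15 fell between it and the *clp-7* peak.

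The *daf-19* peak was the most isolated of the 4. Its nearest listed neighbours were an intergenic peak at R166.8, 358.4 kb above, and an exonic peak at M110.11, 1.97 Mb below. Only 31 of the 364 nuclear peaks had a nearest listed neighbour farther away, and the median was 81.5 kb. Between the *daf-19* peak and these neighbours there were 6 and 21 numbered peaks that are not listed, at unknown positions. The spacing therefore describes the deposited list and not all called peaks.

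**Figure D4:**
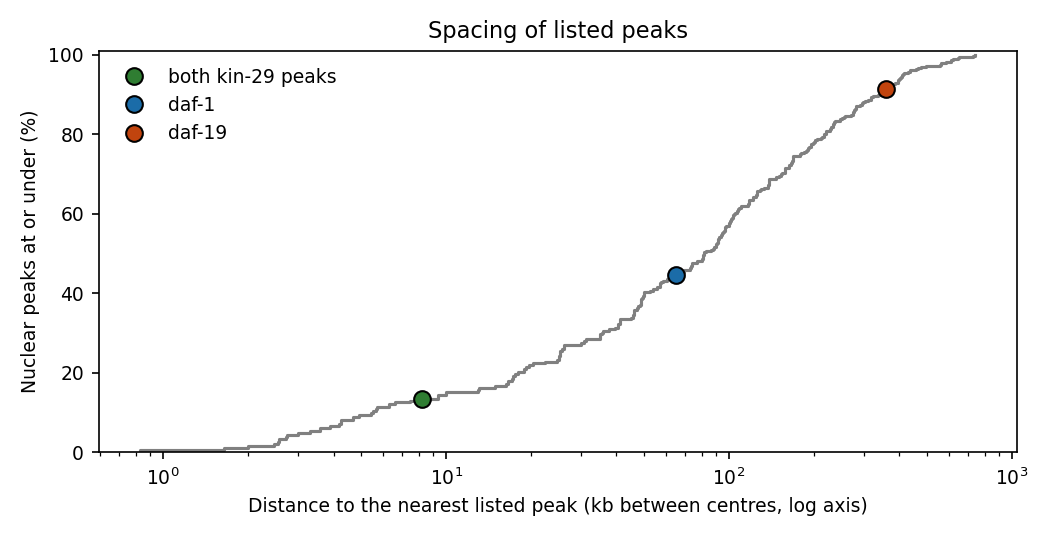
Cumulative share of the 364 nuclear peaks in percent (y axis) by the distance between centres to the nearest listed peak in kb (x axis, log scale); the line is the whole list and coloured points are the peaks of *kin-29*, *daf-1* and *daf-19*. The *kin-29* pair lies at 8.21 kb, *daf-1* at 64.7 kb and *daf-19* at 358.4 kb.

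The other genes of these pathways were looked up in 6 lists of 106 names in all, of which 102 are in the RefSeq gene table. Of the 104 names other than *daf-1*, *daf-19* and *kin-29*, 5 were named as nearest to a listed peak. In the gene table as a whole 0.769% of all genes and 1.28% of protein-coding genes were nearest to a listed peak. The lists were written with earlier results on *kin-1*, *unc-43* and *ccep-290* known, so the counts that hold those genes are no independent measure.

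In the dauer TGF-beta list, 1 of the 7 genes other than *daf-1* had a listed peak, beside 1.28% of all protein-coding genes. That list also holds the insulin-like gene *daf-28*. The 1 gene was *daf-14*, which encodes a Smad protein downstream of the DAF-1 receptor. Its peak (chromosome IV, 10252363 to 10252684, 322 bp) lay in intron 1 of 5 of 1 *daf-14* transcript and 1143 bp upstream of the start of another. Unlike the *daf-1* peak it did not reach a start, with its near edge 982.5 bp upstream. Its nearest listed neighbour, an intergenic peak at F01G10.9, was 9.33 kb away. The ligand gene *daf-7*, the type II receptor gene *daf-4*, the Smad genes *daf-8* and *daf-3*, the Ski-like gene *daf-5* and the insulin-like gene *daf-28* were not named as nearest to a listed peak. None of 8 other TGF-beta genes, 12 insulin and steroid pathway genes and 12 pheromone and cGMP pathway genes in the gene table was either. The genes without one included the insulin receptor gene *daf-2*, its FOXO target *daf-16*, the nuclear receptor gene *daf-12* and the cyclic-nucleotide channel genes *tax-2* and *tax-4*. A further pheromone pathway name, *daf-21*, is not a current symbol in that table. List names were matched as written to the deposited gene names, and *daf-21* was not found among them. Other symbols of that gene were not looked up.

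In a list of ciliary genes written as targets of DAF-19, 2 of 50 names were nearest to a listed peak, beside 1.28% of all protein-coding genes. Regulation by DAF-19 was not checked for each of the 50 names. Of these names 47 are in the gene table. The names *bbs-3*, *bbs-7* and *xbx-2* were not matched there, *bbs-7* being another symbol of *osm-12*. The gene *osm-12*, which encodes a BBSome subunit of the ciliary transport machinery, had a peak of 718 bp in intron 5 of 11, centred 3711 bp downstream of its start (chromosome III, 12198381 to 12199098). The peak nearest to *xbx-4*, a gene named for its X-box, was 311 bp wide (chromosome IV, 2114068 to 2114378), with its centre 450 bp upstream. It was annotated as the promoter of the neighbouring transcript of C23H5.8. Another ciliary gene, *ccep-290*, which encodes a transition-zone protein, held a peak of 424 bp in intron 14 of 22 (chromosome I, 3490460 to 3490883), where the nearest start belonged to *crn-1*. The intraflagellar transport genes *osm-1*, *osm-5* and *osm-6* and the kinesin gene *osm-3* were not named for a listed peak.

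Around KIN-29, 2 of the 14 other kinase and pathway genes were nearest to a listed peak, beside 1.28% of all protein-coding genes. These 2 genes were known from earlier results when the list was written, so nothing is read from this count. The first, *kin-1*, is the gene of the protein kinase A catalytic subunit. Its promoter peak (chromosome I, 14945734 to 14946002) was 269 bp wide and centred 287 bp before the start, close in both to the peaks of *kin-29* and *daf-19*. It ran from 421 to 153 bp upstream. The median signed distance of the 138 promoter peaks was -306 bp, so the distance of the *kin-1* peak is not particular to these genes. The calcium/calmodulin-dependent kinase II gene *unc-43* had 2 peaks in intron 2 of 18, of 483 and 353 bp, and the second was nearest to the piRNA gene 21ur-14024. Their centres were 2538 bp apart, against 8205.5 bp for the *kin-29* peaks. The KIN-29 effector genes *hda-4* and *mef-2* and the AMP-activated kinase genes *aak-1* and *aak-2* were not named for a listed peak. With no depth given, the absence of a gene from the list does not show that it lacks 6mA.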

How the data were processed

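Genomic DNA of 4 libraries was profiled by 6mA MeDIP-seq, in which antibody-bound fragments are sequenced and regions where they pile up are called as peaks. Per the submitters' processing notes, the tools were Trimmomatic 0.35, Bowtie2 2.2.6, Picard and MACS2 2.1.0 and the build was ce10, with no step named for any of them. How peaks were annotated, how classes were bounded and which peaks were listed is not given in the sources used here. Per the file headers, the deposited list gives positions, class, signed distance to the nearest start, transcript and gene. Depth is unknown.

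Peak width is end minus start plus 1, and edges from the deposited distance plus or minus the distance from centre to edge. Gene names and gene order came from a RefSeq gene table of WBcel235. Its coordinates were left out, since the builds differ. The members and gene lists were chosen with earlier results of these data known. Named genes were the members, their nearest listed neighbours and list genes with a peak, and other list genes are named as examples. Reference sequence was not used here, so the planned motif counts were not made, and no statistical test was run. The edge and spacing calculations were tested on simulated data. Python 3.11.15, NumPy 2.4.6, pandas 2.3.3 and matplotlib 3.10.9 were used.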

Additional observations from a re-analysis of the deposited data

How the results depend on the processing

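Measured from the nearest edge in place of the deposited distance, the peaks of *daf-1*, *kin-29* and *daf-19* lay at 0, -65.5 and -88.5 bp from the start, and the *kin-29* termination-site peak at -3790 bp from the start of Y71H10B.1. From the farthest edge these values were -224.5, -338.5, -363.5 and -4414 bp. Edge distances differ from the deposited ones by construction. Counting width as end minus start took 1 bp from each width. All 3 promoter peaks stayed in windows of 500 or 1000 bp upstream to 100 bp downstream of the start. That follows directly from their deposited distances. With centres within 5 kb, 0 of the 4 peaks had a close listed neighbour, against 2 within 10 or 20 kb or with edges within 10 kb, and 3 within 100 kb (a limit chosen after seeing the data). By gene name alone there were 3 peaks instead of 4, and counting annotated transcripts as well gave 8 list genes instead of 7. A stricter peak threshold was not run, because the list holds no scores. No paired analysis was possible because there is 1 library per group and the peaks could not be tied to any of them.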
